A study of Drosophila melanogaster with 7 samples.

Results

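CLAMP peaks on the X chromosome that only one of 2 Drosophila melanogaster cell lines held were collected from CUT&RUN libraries of S2 cells, labelled male, and Kc cells, labelled female. Both lines are established lines of embryonic origin, and no genotype, treatment or time other than the line and its sex is given in the labels. The study had 3 CLAMP libraries and 1 rabbit IgG library of S2 cells, and 2 CLAMP libraries and 1 rabbit IgG library of Kc cells. With 1 line of each sex, sex and line cannot be told apart. Peak intervals of the 5 CLAMP libraries that shared at least 1 bp were merged, and regions on X that started below 22 Mb (build dm6) and overlapped no IgG peak were kept. A region was called S2-line when S2 replicates 1 and 2 held it and neither Kc library did, and Kc-line when both Kc libraries held it and none of the 3 S2 libraries did. These criteria gave 258 S2-line and 129 Kc-line regions, 387 in all, of 3255 merged regions on X below 22 Mb and 19039 merged regions in the whole series.

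CLAMP, a protein with zinc fingers, recognises GA-rich DNA and occupies sites on the X and the autosomes alike. In males it helps bring the MSL complex, which holds proteins and the noncoding RNAs roX1 and roX2, to the X, where the complex raises transcription of X-linked genes. In females Sxl, an RNA-binding protein that also sets female splicing, blocks production of the MSL2 protein, and the complex does not form. CLAMP is present in both sexes. The comparison of lines asks where its X-linked binding is shared and where it is not.

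The peak lists differ in ways that touch the classes. The CLAMP lists held 5535 to 9832 peaks on the main chromosome arms, of which 495 to 2167 lay on X below 22 Mb. S2 replicate 3 had the fewest peaks and stood apart, with 8.94% of its peaks on this part of X against 17.3% to 22% in the other 4 CLAMP libraries. Of the X peaks of S2 replicate 3, 47.9% lay in regions that also held an IgG peak, against 14.7% to 22.4% in the other CLAMP libraries. There were 1165 peaks in the list of S2 IgG and 8615 in that of Kc IgG. The step that left out regions with an IgG peak set aside 17 of 275 S2-line candidates, 12 of them over an S2 IgG and 6 over a Kc IgG peak. It set aside 85 of 214 Kc-line candidates, 4 over an S2 IgG and 82 over a Kc IgG peak. The deposited files give no read totals, and the depth of the libraries is unknown.

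The members were selected on the presence of peaks, so the counts of each class are a description with no test. On X, 9.11% of the 2833 merged regions without an IgG peak were S2-line and 4.55% were Kc-line. On the autosomes the same criteria gave 979 S2-line regions, or 7.35% of 13320, and 293 Kc-line regions, or 2.2%. Regions held by S2 replicates 1 and 2 and both Kc libraries, called both-line here, numbered 444 on X. A further 1592 X regions were held by a single library. The criteria are not the same for both classes, since a Kc-line region must be missed by 3 S2 libraries and an S2-line region by 2 Kc libraries.

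Many regions lay just outside the criteria. S2 replicates 1 and 2 and exactly 1 Kc library held 158 regions, 59 of them with Kc replicate 1 and 99 with Kc replicate 2. Both Kc libraries and exactly 1 S2 library held 88 regions, 76 of them with S2 replicate 1, 11 with S2 replicate 2 and 1 with S2 replicate 3. The 22 Mb limit lay in a stretch without members. The last S2-line region inside it was X:21730342-21730626, with a fold enrichment of 1.99 in S2 replicate 1 and 2.90 in S2 replicate 2, and the first outside was X:22461160-22461988, with 7.14 and 10.4. The last Kc-line region inside was X:21783013-21783326, with 5.36 and 2.41 in Kc replicates 1 and 2, and the first outside was X:22478582-22479083, with 1.71 and 2.03. Beyond the limit, 11 further S2-line and 2 further Kc-line regions were left out.

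S2-line regions were wider and stronger in their own libraries than Kc-line regions. The fold given throughout is the authors' fold enrichment of a peak over the background their peak caller estimated, and it depends on the list: for S2 replicates 1 and 2 the median over all X peaks was 2.70 and 2.79, against 2.07 and 2.39 for the Kc libraries. To set libraries side by side, each peak's fold was ranked within its own list as a percentile. The strength of a region is its mean percentile over the 2 libraries that the criteria require. For both-line regions it is the mean over S2 replicates 1 and 2 and both Kc libraries. Both-line regions had to be listed by more libraries, so their strength is not quite a like measure. Median strength was 60.8 in S2-line, 49.5 in Kc-line and 76.4 in both-line regions, so both classes sat below the regions that the lines shared. The median width was 528 bp in S2-line regions (212 to 4191 bp), 459 bp in Kc-line regions (220 to 1848 bp) and 937 bp in both-line regions. Merging adds the reach of every library that holds a region, and both-line regions are held by more libraries. The difference of 69 bp between the classes turned to -12 bp when peaks up to 200 bp apart were joined, to -111 bp without S2 replicate 1 and to -162 bp without S2 replicate 2.

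Replicate agreement within the required libraries was closer for the S2-line class. The peaks of both required libraries overlapped each other directly in all 387 regions. Merging makes this certain for every Kc-line region and for S2-line regions without a peak of S2 replicate 3. The strongest summits of the required libraries, the points of highest signal, lay a median of 29 bp apart in S2-line and 90 bp apart in Kc-line regions. A summit gap of at most 100 bp was found in 187 of 258 S2-line regions (72.5%, 95% Wilson interval 66.7% to 77.6%) and in 69 of 129 Kc-line regions (53.5%, 44.9% to 61.9%). In both-line regions the gap was taken between Kc replicates 1 and 2. Its median there was 112.5 bp, and 48.0% of these regions (43.4% to 52.6%) had at most 100 bp. Whether the wider gap belongs to the Kc-line class or to the Kc libraries was not tested. A q-value of 0.0001 or less in both required libraries was reached by 206 S2-line regions (79.8%, 74.5% to 84.3%) and by 44 Kc-line regions (34.1%, 26.5% to 42.6%). It was reached by 73.6% of both-line regions in all 4 of their libraries. Among all X peaks, 82.1% and 85.1% of those of S2 replicates 1 and 2 reached it, against 54.8% and 72.0% of those of Kc replicates 1 and 2, so the lists as a whole differ in the same direction. A fold over 3 in both was reached by 88 S2-line regions (34.1%) and 5 Kc-line regions (3.88%), and by 20.3% of both-line regions in all 4 libraries, in lists whose median folds differ as given above. These intervals cover counting error only, since regions of the same libraries are not replicates.

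**Figure D1:**
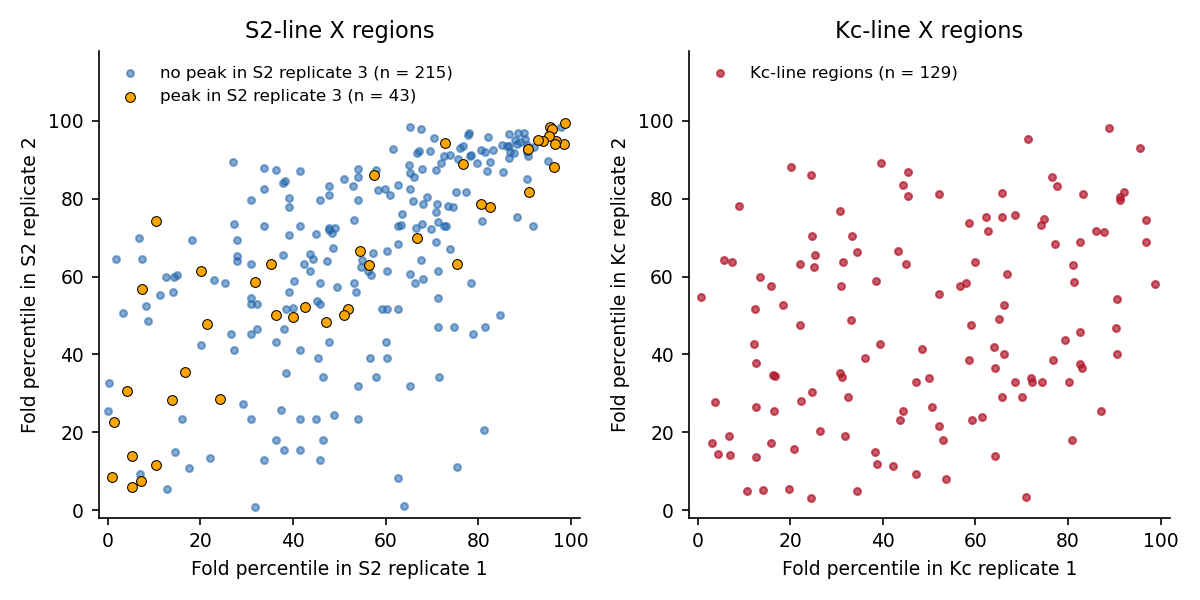
Percentile of each region's fold within the peak lists of the 2 libraries that chose it, for 258 S2-line regions (left) and 129 Kc-line regions (right). Each point is a region, and orange points are the 43 S2-line regions that also held a peak of S2 replicate 3. The strongest S2-line regions gather at the upper right, and the Kc-line points are spread over the whole panel.

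The strongest S2-line region lay inside CG4645 at X:12910627-12911441, with a fold of 10.9 in S2 replicate 1, 18.4 in S2 replicate 2 and 2.18 in S2 replicate 3. It was followed by X:20024239-20025235 inside Dop2R, a dopamine receptor gene that here also lies by the tRNA gene tRNA:Pro-CGG-1-1, with 9.94, 13.4 and no peak in S2 replicate 3. The third, X:15051355-15052447, lay over one end of CG5541 and in the interior of hiw, a ubiquitin ligase gene of synapse growth, with 7.99, 13.9 and 3.12. The region inside CG42699, within 500 bp of CG15767, at X:5788126-5789452 had 8.29, 12.5 and 3.63. All of these exceeded a fold of 7 in both libraries that chose them.

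The remaining 6 of the 10 strongest lay in CG32767 at X:5075531-5076409, CG5004 at X:17117626-17118712, in yin and over one end of CG2930 at X:3868169-3869278, by CG4766 and lncRNA:CR44498 at X:6000469-6001753, in CG34417 at X:6569521-6570623, and near the tip of X at X:95128-95673. Their folds ran from 7.25 to 10.6 in S2 replicate 1 and from 8.16 to 11.8 in S2 replicate 2. Of the 10, all but the Dop2R and CG32767 regions were also held by S2 replicate 3.

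The strongest Kc-line region lay at the ends of meso18E and lncRNA:CR44889 at X:19712286-19713628, with a fold of 3.70 in Kc replicate 1 and 5.42 in Kc replicate 2. The second, X:96648-97605, was intergenic near the tip of X, with 2.94 and 8.60. A region inside CG3168 at X:6730323-6731258 had 3.19 and 3.46. The region inside Mgstl, a microsomal glutathione transferase gene, and within 500 bp of asRNA:CR44431 lay at X:21042450-21043415 with 3.11 and 3.35. The fifth, X:21648341-21648754, lay in flam, a piRNA cluster built from transposon remnants, with 4.03 and 3.00.

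The other 5 of the 10 strongest Kc-line regions lay inside genes of adhesion, signalling and lipid storage or at their ends. In kirre, which encodes an immunoglobulin-domain adhesion protein, X:3099151-3099535 had 3.11 and 3.3. In DIP-alpha, whose product pairs with Dpr proteins at synapses, X:3554921-3555540 had 2.35 and 6.44. In Appl, the fly relative of the amyloid precursor gene, X:551492-551798 had 4.0 and 2.76. In Ac13E, an adenylyl cyclase gene, X:15543204-15543519 had 2.67 and 3.42. At Lsd-2, a lipid droplet protein gene, X:15069237-15070252 had 2.46 and 3.86. Of these 10 regions, those in Appl, flam and Mgstl lay 197, 263 and 280 bp from the nearest IgG peak. The rest lay 2089 bp or more from one.

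A peak of S2 replicate 3 was neither required nor barred in S2-line regions, although its peaks entered the merging (without it there were 259 S2-line regions). It held a peak in 43 of 258 of them (16.7%, Wilson interval 12.6% to 21.7%). It held 58 of 444 both-line regions on X (13.1%, 10.2% to 16.5%), and the intervals overlapped. On the autosomes it held 225 of 979 S2-line regions (23.0%) and 494 of 1554 both-line regions (31.8%). Among S2-line X regions ordered by strength, it held 19 of the stronger 129 and 24 of the weaker 129, although it held 8 of the 10 strongest. Its folds in the 43 regions ran from 1.51 to 4.42 with a median of 2.37. Of its 495 X peaks, 55 lay in S2-line regions, 71 in both-line regions, 132 in other regions and 237 in regions with an IgG peak.

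Genes of the dosage compensation system were looked at first by name. Of 14 listed genes, 4 lay on X: roX1, roX2, mof, which encodes the acetyltransferase of the MSL complex, and wds, which encodes a protein with WD repeats. The end of roX1 (X:3857230-3862697) carried an S2-line region at X:3862494-3862773, with a fold of 1.76 in S2 replicate 1 and 2.65 in S2 replicate 2, at a strength of 37.0. It lay also within 500 bp of yin and was weak within its class, at rank 211 of 258. No Kc CLAMP peak overlapped roX1, whereas S2 replicates 1, 2 and 3 listed 3, 2 and 2 peaks over it. The strongest of these, within roX1, had folds of 6.10, 11.1 and 2.20 in S2 replicates 1 to 3, but its region overlapped an S2 IgG peak with a fold of 2.45 and was set aside. The S2-line region is thus not the main S2 peak of the gene.

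Both lines held X:11578922-11580805 over roX2 (X:11579065-11580432), with folds of 8.40, 11.8 and 4.57 in S2 replicates 1 to 3 and 2.67 and 4.83 in Kc replicates 1 and 2. The nearest S2-line region, X:11600626-11601066 at rho-4, lay 20193 bp from roX2, and the nearest Kc-line region 205613 bp away. mof and wds held no region of either class. mof had 2 peaks of Kc replicate 1, 1 of Kc replicate 2 and none of the S2 libraries, but no region over it passed as Kc-line. The nearest both-line region lay 2744 bp from mof.

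The roX1 region was 1 of 6 S2-line regions that followed each other with gaps of at most 20 kb from X:3835395 to X:3872474. The group covered ec, a ubiquitin protease gene, roX1, yin, which encodes an oligopeptide transporter, and CG2930. Its strongest member was the region in yin over one end of CG2930, with folds of 9.02, 8.80 and 2.35 in S2 replicates 1 to 3. That member began 10.939 kb from the lower end of roX1, and an S2 IgG peak with a fold of 1.83 ended at 10.912 kb. The other 5 members ranged from 1.52 to 3.66 in S2 replicate 1 and from 1.67 to 2.68 in S2 replicate 2. S2 replicate 3 held none of these 5. Over this span S2 replicates 1, 2 and 3 had 9, 10 and 5 peaks, both Kc CLAMP libraries 0, the S2 IgG 3 and the Kc IgG 1. The nearest both-line region, X:3811250-3812587 at ec and fd3F, lay 44642 bp from roX1.

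**Figure D2:**
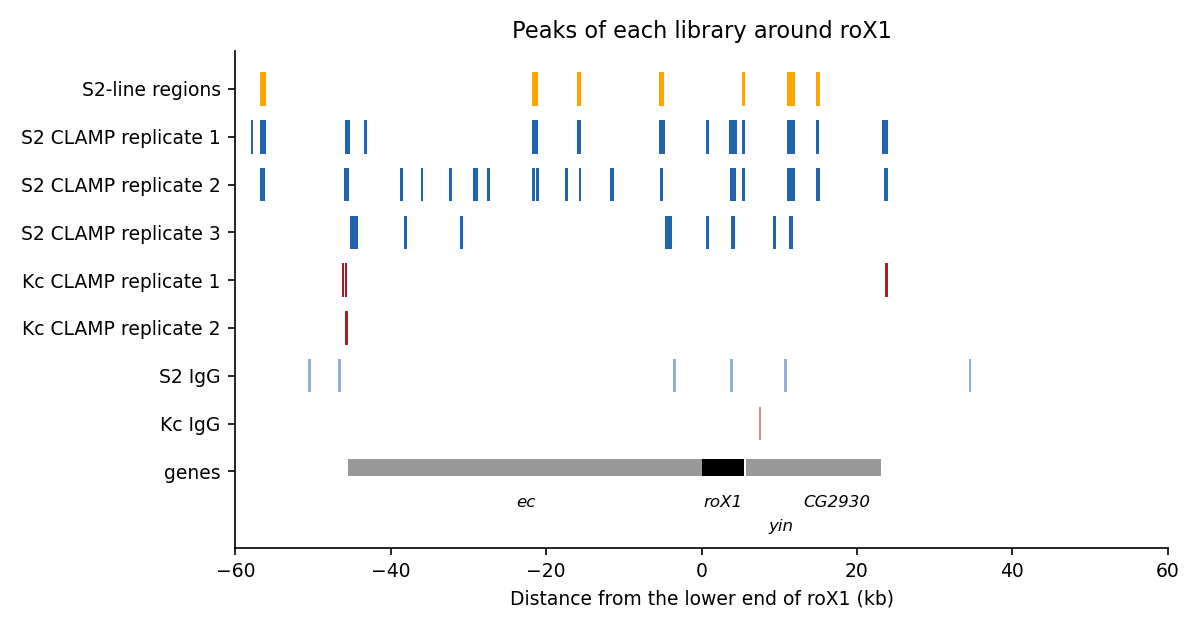
Peaks of every library within 60 kb of the lower end of roX1, drawn as blocks along the distance in kb, with S2-line regions in orange on top and the genes named in the text at the bottom. The S2 CLAMP libraries list 15, 19 and 9 peaks here and the Kc CLAMP libraries 3 and 1, and the S2 IgG library lists 6 and the Kc IgG library 1.

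With members joined at gaps of at most 20 kb, S2-line regions formed 148 groups, of which 25 held 3 or more regions and 106 regions in all. The Kc-line class, with fewer members, formed 90 groups, 7 of them with 3 or more regions and 25 regions in all. Groups of 3 or more held 41.1% of S2-line, 19.4% of Kc-line and 55.4% of both-line regions. These shares follow the order of class size, with 258, 129 and 444 regions on the same DNA. Median gaps between neighbouring regions of a class were 29620 bp for S2-line, 77892 bp for Kc-line and 15892 bp for both-line regions. The number of members sets these shares and gaps in part. Among the 386 pairs of neighbouring members, 195 were both S2-line, 66 both Kc-line and 125 mixed.

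In 11 of the 25 S2-line groups of 3 or more, holding 43 regions, no Kc CLAMP library listed a peak anywhere in the span. One covered boi, which encodes a Hedgehog co-receptor, and its neighbours from X:2426378 to X:2470292, with 7 regions. Within it X:2445984-2446686 in boi had folds of 3.88 and 10.3 in S2 replicates 1 and 2, and X:2469645-2470292, over the end of boi that faces trol, the perlecan gene, had 5.48 and 3.64. The region at gt, a gap gene transcription factor, X:2426378-2427056, had 2.46, 2.36 and 3.19 and was the only member of this group that S2 replicate 3 held. Other members lay by tko, a mitochondrial ribosomal protein gene, and z, a DNA-binding protein gene. The gt region was 82328 bp from the nearest Kc CLAMP peak, the largest such distance among S2-line regions.

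The boi group lay in a stretch of 166 kb, X:2343813-2509384, without a Kc CLAMP peak. S2 replicates 1, 2 and 3 had 15, 11 and 5 peaks in it, 8 S2-line regions among them. Neither IgG library had a peak there, although the Kc IgG list is the longer of the pair. The longest such stretch with an S2-line region, 208 kb at X:2852190-3059938 in kirre, held 2 S2-line regions, and the third longest, 138 kb at X:13138888-13276908, held 5. The Kc IgG list had 0 peaks in these as well, and the S2 IgG list 1 and 4. In the next 5 stretches by length the Kc IgG list had from 0 to 7 peaks. The part of this lack of Kc IgG peaks in the absence of Kc CLAMP peaks was not tested.

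Myc, the growth regulator, held 3 S2-line regions and no Kc-line region. The regions X:3379353-3380049, with folds of 3.02 and 4.55 in S2 replicates 1 and 2, X:3381706-3382045, with 2.16 and 2.27, and X:3389382-3390479, with 3.35 and 4.0, overlapped Myc, and 2 more followed up to X:3408366. All 5 also lay in lncRNA:CR44999, a noncoding gene of 149629 bp over the same DNA, and 3 of them in or within 500 bp of CG12535. Genes that overlap cannot be told apart from peaks. None of the 5 was held by S2 replicate 3, and the span had no Kc CLAMP peak and no peak of either IgG library. Myc also held 1 both-line region.

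The largest S2-line group held 11 regions from X:13237595 to X:13342407 and was not free of Kc peaks. It covered mew, an integrin subunit gene, HDAC4, a histone deacetylase gene, Remo, CG1764, IP3K2, an inositol trisphosphate kinase gene, and Prx2, a peroxiredoxin gene. Its strongest member was X:13341679-13342407, intergenic and nearest to CG15747, with folds of 6.01 and 5.04. Kc replicates 1 and 2 had 13 and 15 peaks in the span, one pair of which formed a Kc-line region in IP3K2 at X:13323472-13324033, with 2.5 and 3.60.

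S2 replicate 3 held every member of 3 groups, 12 regions in all. A group of 3 in Hr4, a nuclear receptor gene of the ecdysone response, ran from X:1955005 to X:1962774, with folds of 2.24 to 2.64 in S2 replicate 1, 2.32 to 2.80 in S2 replicate 2 and 1.77 to 2.18 in S2 replicate 3. A group of 4 intergenic regions at X:11312182-11319363 lay between Ir10a, an ionotropic receptor gene, and sisA, an X-linked gene that counts toward female sex in the early embryo. Its folds were 1.55 to 3.08, 1.95 to 3.19 and 1.62 to 2.06. It had no Kc CLAMP peak, 1 S2 IgG peak and 2 Kc IgG peaks in its span. The last was a group of 5 near the tip of X, described below with flam.

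Other S2-line groups lay within single genes. hep, which encodes a kinase of the JNK pathway, held 3 regions, the strongest X:13089889-13090431 with 6.47 and 7.80, and no Kc CLAMP peak lay within their span. CG43658 held 5 at X:17484478-17496002, with folds of 1.66 to 3.36 and 2.32 to 4.66. Raf, the kinase upstream of MEK, held 4, and X:2315617-2316545 was the strongest with 4.46 and 6.12. Raf is not a gene of one line, since it also held 8 both-line regions.

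Kc-line groups were fewer. The largest, 5 regions from X:19285390 to X:19323891, covered CG8034, CG8051 and out, with folds of 1.65 to 2.02 in Kc replicate 1 and 2.02 to 3.38 in Kc replicate 2. S2 replicates 1 and 2 had 2 and 1 peaks within that span. A group of 4 at X:8028492-8039628 lay near Tbh, the octopamine synthesis gene, and in fs(1)h, a BET bromodomain gene, with 2.25 to 2.87 and 2.09 to 3.04. In its span S2 replicates 1, 2 and 3 had 1, 1 and 3 peaks, and the Kc IgG library had 1. In 4 of the 7 Kc-line groups no S2 CLAMP library listed a peak in the span. These lay in AMPdeam, an AMP deaminase gene, with 1 region of its neighbour mamo, in Lsd-2 and at 2 noncoding genes beside it, in Ac13E and CG42300, and in CG4301 and CG9981. The Ac13E region X:15543204-15543519 stood 40534 bp from the nearest S2 peak.

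Both classes were spread along X, and the S2-line class was uneven. In 2 Mb windows from the tip, it had 59 of its 258 regions (22.9%) from 2 to 4 Mb and 9 to 28 in each of the other 10 windows. The Kc-line class had 6 to 18 in each window and was most frequent from 18 to 20 Mb, with 18 regions, where the S2-line class was least frequent, with 9. From 14 to 16 Mb, Kc-line regions also outnumbered S2-line regions, 13 to 10. Both-line regions peaked in the same window as the S2-line class, with 59 of 444 (13.3%). From 2 to 4 Mb, S2-line regions made up 17.4% and Kc-line regions 2.95% of the merged regions without an IgG peak. Within this window, the 0.5 Mb from 2.0 to 2.5 Mb held 27 S2-line regions, 28 both-line regions and 0 Kc-line regions. The reverse held from 19.0 to 19.5 Mb, with 1 S2-line and 9 Kc-line regions.

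**Figure D3:**
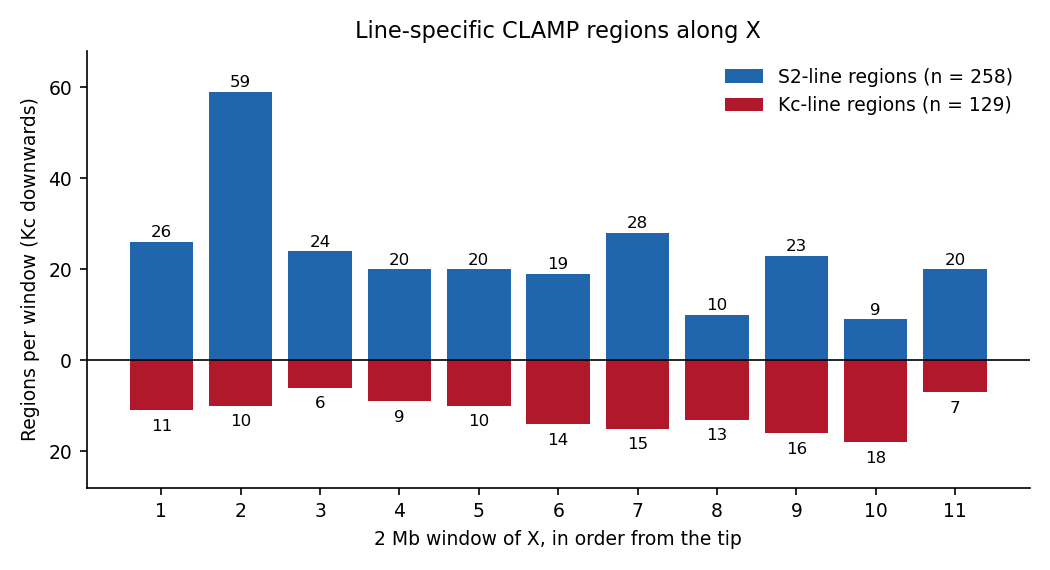
Number of S2-line regions (upwards, blue) and Kc-line regions (downwards, red) in 2 Mb windows of X, numbered from the tip. The S2-line class reaches 59 in the second window and stays at 28 or fewer elsewhere, and the Kc-line class ranges from 6 to 18.

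The distribution of all X peaks of a library includes the peaks that chose the members, and it is given as a description with no test. Of their X peaks, S2 replicates 1, 2 and 3 had 14.1%, 15.1% and 15.6% from 2 to 4 Mb, and Kc replicates 1 and 2 had 8.81% and 9.28%. The groups did not overlap, with 14.9% ± 0.741 (SD, n = 3) against 9.05% ± 0.331 (SD, n = 2). The difference was 5.89 percentage points, and 7.94 with peaks that overlap an IgG peak left out. The lines were apart in 4 of 11 windows (36.4%), S2 above Kc from 0 to 4 Mb and below it from 16 to 20 Mb. From 0 to 2 Mb they were apart only narrowly, with 8.23% in S2 replicate 1 and 8.14% in Kc replicate 2. S2 replicate 3 had 13.9% there. With so few libraries, windows can be apart through the scatter of libraries alone, and no expected share was computed. The window was picked after its values were seen.

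The IgG libraries, which hold no CLAMP signal by design, differed in the same order. From 2 to 4 Mb the S2 IgG library had 12% of its X peaks and the Kc IgG library 3.85%, the lowest share of any library in any window. In all 4 windows where the CLAMP libraries of the lines were apart, the S2 and Kc IgG libraries stood in the same order as the CLAMP libraries, and in the other 7 windows they did so in 3. From 18 to 20 Mb, for example, S2 CLAMP libraries had 5.05% to 6.97%, Kc CLAMP libraries 8.32% and 8.49%, the S2 IgG 8.31% and the Kc IgG 14.2%. The part of this IgG pattern in the counts of the classes was not tested, and each line has 1 IgG library. The IgG lists also differ in length, as given above. The median fold of their X peaks was 20.05 in the S2 IgG and 2.00 in the Kc IgG library. The median width of these peaks was 375 bp in the S2 IgG and 266 bp in the Kc IgG library. The shares of the IgG libraries may therefore not be like measures.

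**Figure D4:**
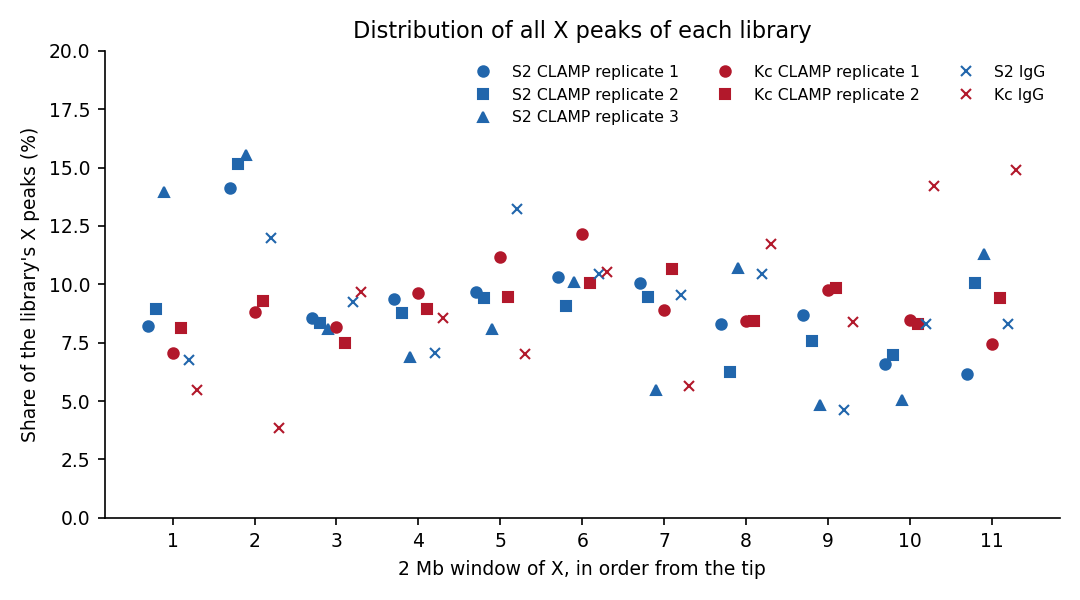
Share of each library's X peaks that lies in each 2 Mb window of X. Circles, squares and triangles are CLAMP replicates 1, 2 and 3, crosses are IgG, and S2 is blue and Kc red. In the second window the 3 S2 CLAMP libraries lie at 14.1% to 15.6%, above the Kc CLAMP libraries at 8.81% and 9.28%, and the S2 IgG cross (12%) also lies above the Kc IgG cross (3.85%).

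Most regions of both classes had their strongest summit in the interior of an annotated gene. Gene ends, taken as 500 bp to either side of either end of a gene because strand is not used, held 85 S2-line summits (32.9%, Wilson interval 27.5% to 38.9%) and 33 Kc-line summits (25.6%, 18.8% to 33.7%). The share was 37.2% in both-line regions, and 16.8% of X sequence below 22 Mb lies this close to a gene end. The difference between the classes was 7.36 percentage points, with a 95% Newcombe interval from -2.45 to 16.4 that covers counting error only. Gene interiors held 150 S2-line (58.1%) and 84 Kc-line summits (65.1%), with 65.3% of the sequence. Intergenic summits numbered 23 (8.91%) and 12 (9.30%), against 17.9% of the sequence. Exons, introns and untranslated regions were not separated.

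**Figure D5:**
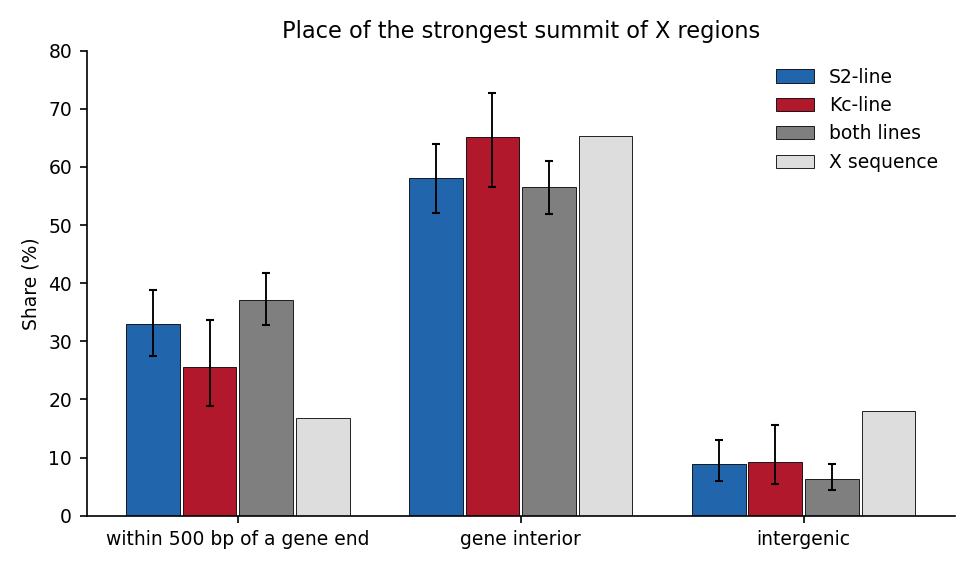
Share of S2-line (n = 258), Kc-line (n = 129) and both-line (n = 444) regions whose strongest summit lies within 500 bp of a gene end, in a gene interior or between genes, beside the share of X sequence below 22 Mb in each place. Error bars are 95% Wilson intervals and cover counting error only. All 3 kinds of region exceed the sequence at gene ends, with 32.9%, 25.6% and 37.2% against 16.8%.

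Genes over 20 kb held 112 S2-line (43.4%), 53 Kc-line (41.1%) and 186 both-line regions (41.9%), and cover 47.4% of X sequence below 22 Mb. More than 1 gene was overlapped by 50 S2-line (19.4%, 15% to 24.6%) and 15 Kc-line regions (11.6%, 7.17% to 18.3%), and no gene by 26 and 15. Over libraries, the share of all X summits at gene ends was 35.8%, 28.7% and 15.6% in S2 replicates 1 to 3 and 24.1% and 30.9% in Kc replicates 1 and 2. These groups overlapped, with a difference of -0.862 percentage points and p = 1 in the exact permutation test. Without S2 replicate 3 the difference was 4.69 percentage points, in the other direction. Intergenic shares were 10.4%, 14.1% and 29.7% against 13.7% and 13.4%, with a difference of 4.52 percentage points (p = 0.8, exact permutation test), which became -1.28 without S2 replicate 3. The S2 CLAMP libraries had 14.7% ± 4.95 (SD, n = 3) of their peaks on X below 22 Mb and the Kc libraries 20.5% ± 2.21 (SD, n = 2), a difference of -5.83 percentage points (p = 0.3, exact permutation test, adjusted p = 0.6 over 4 measures), with all S2 libraries below both Kc libraries. Without S2 replicate 3 it was -2.97. The median width of X peaks was 443, 430 and 322 bp in S2 replicates 1 to 3, against 286 and 331 bp in the Kc libraries, and the groups overlapped (p = 0.3, exact permutation test, adjusted p = 0.6).

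Distances to peaks of the other line have no background of other X positions here. They were measured to 2 Kc lists for S2-line regions and to 3 S2 lists for Kc-line regions. The nearest peak of the other line lay a median of 3323.5 bp from S2-line and 2867 bp from Kc-line regions. It lay within 500 bp of 41 S2-line (15.9%, 11.9% to 20.8%) and 18 Kc-line regions (14.0%, 9.01% to 21.0%), and over 10 kb away from 50 (19.4%) and 30 (23.3%). Both-line regions lay a median of 10584 bp from S2-line and 10705 bp from Kc-line regions, and within 1 kb of 23 and 16. The counting intervals of these shares overlapped between the classes. The nearest IgG peak lay a median of 9801.5 bp and 7380 bp away.

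Genes that overlapped a region, or lay within 500 bp of one, numbered 264 for the S2-line and 125 for the Kc-line class. These were 10.1% and 4.78% of the 2613 genes on X below 22 Mb. Of the 264, 87 also held a both-line region, as did 60 of the 125. Of the 21 genes with 3 or more S2-line regions, lncRNA:CR44999 held 8, flam and boi 6 each, CG12535 and CG43658 5 each, and kirre, Raf and lncRNA:CR32773 4 each. Those with 3 included CG34417, Hr4, IP3K2, RhoGAP19D, CG5445, Edem1, Fim, HDAC4, Myc, ec, hep and yin. Only kirre, AMPdeam, Ac13E and CG4301 held 3 Kc-line regions, and no gene held more. Several of these genes are long, and neighbouring or overlapping genes such as CG5445 and Fim were credited with the same regions.

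Genes with exactly 2 S2-line regions included ct, dnc, mew, mgl, Tlk, Mnt, Actn, CHES-1-like, PhKgamma, Ppt1, Prx2, mip130, pigs, rudhira and CARPB. Genes with exactly 2 Kc-line regions included fs(1)h, Appl, Lsd-2, Pvf1, PGRP-LE, RhoGAP18B, RhoGAP15B, RhoU, rdgB, svr, GstT4 and CG8034. Among the former, Mnt encodes the partner that opposes Myc, and among the latter Pvf1 encodes a growth factor of the VEGF and PDGF family and PGRP-LE a sensor of bacterial peptidoglycan.

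Regions of both classes were found in 32 genes. kirre, which spans X:2740384-3134532, held 4 S2-line, 3 Kc-line and 1 both-line region. fs(1)h held 1 S2-line, 2 Kc-line and 4 both-line regions, and Tlk, a protein kinase gene, 2, 1 and 10. AMPdeam held 1 S2-line and 3 Kc-line regions. The others with 3 or more S2-line regions were lncRNA:CR44999, flam, CG12535, CG34417, Hr4, IP3K2 and RhoGAP19D. Among the rest were ct and br, transcription factor genes, Smr, a corepressor gene, elav, a neuronal RNA-binding protein gene, dlg1, a septate junction scaffold gene, Marf, the mitofusin gene, mnb, a DYRK kinase gene, hiw and trol.

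The Kc-line region X:508942-509295, with folds of 2.03 and 2.01, lay over the lower end of elav and the upper end of its neighbour svr. The S2-line region X:513681-514168, in the interior of elav, had 2.79 and 2.12. At trol the S2-line region lay within 500 bp of the gene, over the end of boi, and the Kc-line region X:2542840-2543432, with 2.48 and 2.74, at the far side of the gene. In br, the ecdysone-response gene, the S2-line region X:1628160-1628739 had 2.13, 2.36 and 2.32 and the Kc-line region X:1617962-1618310 had 1.61 and 1.75. Regions of the classes in the same gene were thus separate places several kb apart in these 3 genes.

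The closest pairs of the classes lay in flam and near the tip of X. In flam the Kc-line region X:21648341-21648754 and the S2-line region X:21648862-21650255 were 107 bp apart, with folds of 4.03 and 3.00 in Kc and of 2.04, 2.60 and 2.12 in S2 libraries. The pair near the tip of X lay far from genes, and the nearest gene, lncRNA:CR40469, was 24887 bp from its Kc-line region. There the Kc-line region X:96648-97605 and the S2-line region X:95128-95673 were 974 bp apart, and the latter had 7.25, 8.77 and 4.19. This S2-line region belonged to a group of 5 from X:63335 to X:112409, all held by S2 replicate 3, in whose span the Kc CLAMP libraries had 10 and 11 peaks, the S2 IgG 2 and the Kc IgG 7. Reads from repeated DNA can be shared between copies, and the sources used here do not say how such reads were placed. Peaks in flam and at the tip are therefore uncertain, although no repeat annotation was used here.

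Sex determination genes carried 1 region of either class. Of 8 listed genes on X, only Sxl (X:7074550-7098053) held one, the Kc-line region X:7095171-7095660, with folds of 2.41 in Kc replicate 1 and 2.94 in Kc replicate 2. A both-line region, X:7096884-7098045 near the upper end of Sxl, had folds of 7.02 and 5.04 in the required S2 libraries and of 3.33 and 5.93 in the Kc libraries. Over the whole gene S2 replicates 1, 2 and 3 had 1, 2 and 0 peaks and Kc replicates 1 and 2 had 5 and 2. The nearest S2-line region lay 189726 bp from Sxl. sisA, sc, run, upd1, snf, ovo and otu held none.

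The counts of the gene lists that follow are to be read beside all 2613 X genes, of which 10.1% held an S2-line, 4.78% a Kc-line and 17.1% a both-line region. Of 31 developmental transcription factor genes, 6 held an S2-line, 5 a Kc-line and 15 a both-line region. The strongest region was the S2-line region X:8757686-8758148 in Lim1, a LIM homeobox gene, with folds of 3.12 and 7.32. At sd, the TEAD factor of the Hippo pathway, the Kc-line region X:15803881-15804702 had 2.02 and 4.04. Hr4 and gt, described above, came next. Long genes can hold more regions, and no list was compared with genes of its own length.

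Of 22 signalling genes on X, 6 held an S2-line, 4 a Kc-line and 15 a both-line region. In arm, the fly beta-catenin gene, the S2-line region X:1893456-1894311 had 4.35 and 7.04. At dome, the receptor of the JAK/STAT pathway, the Kc-line region X:19675730-19676253 had 2.65 and 2.06. The Raf and fs(1)h regions were the other strong ones of this list.

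Among 27 neuronal and cell adhesion genes, 7 held an S2-line, 7 a Kc-line and 9 a both-line region. The S2-line region X:9494230-9494935 in mgl, the megalin gene, had 5.16 and 6.48 and was the strongest of this list. Among 15 RNA-binding genes, 3 held an S2-line, 4 a Kc-line and 3 a both-line region. After Sxl, the strongest were the Kc-line regions in Prp16, a splicing helicase gene, with 2.63 and 2.20, and within 500 bp of swa, which acts in bicoid mRNA localization, with 2.00 and 3.62.

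Among 16 chromatin genes, 3 held an S2-line, 4 a Kc-line and 10 a both-line region. In fs(1)h the Kc-line regions X:8038992-8039628 and X:8038399-8038651 had 2.59 and 2.43 and 2.47 and 2.09, and the S2-line region X:8046492-8046797 had 2.65 and 2.12. ph-d, a Polycomb group gene, held an S2-line region with 2.05 and 2.27, and e(y)3 a Kc-line region with 1.71 and 2.46. Among 18 cell cycle and growth genes, 3 held an S2-line, 1 a Kc-line and 7 a both-line region. The strongest was X:16614160-16614845 at the end of mbt, a p21-activated kinase gene, with 7.78 and 6.20, followed by X:15875507-15876186 within 500 bp of tay, with 3.00 and 5.37, and the Myc regions.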

How the data were processed

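CUT&RUN with a CLAMP antibody or rabbit IgG was done on unfixed S2 and Kc cells, per the labels' protocols, with 1 ng of DNA, 14 PCR cycles and paired 25 bp reads. FastQC, Trimmomatic, Bowtie2, MACS2 and build dm6 are named in the submitters' processing notes, without versions. The sources used here do not say whether IgG was the control of peak calling, or how duplicate or multiply placed reads were treated.

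Peaks were called separately for each sample, since the authors deposited a list for every library. The deposited fold is a ratio of signal over background per peak, the deposited −log10 values are those of p and q, and the deposited score, which repeats the p-value, stayed out of the analysis. The deposited start, end and summit positions are other values in bp, shown here counted from 1. The title of S2 replicate 3 and its list carry different internal numbers, and the title was followed. Neither read depth nor separate cultures are stated, so p-values measure only how these libraries scatter, possibly for technical reasons.

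From these lists, merged regions, classes, windows of 2 Mb, groups and distances were computed with Python 3.11.15 and pandas 2.3.3, and genes came from a RefSeq table of the same build. Shares carry 95% Wilson intervals (scipy 1.17.1), and adjusted p-values follow Benjamini and Hochberg (statsmodels 0.14.6). Lines were compared over libraries by exact permutation of the 10 assignments, two-sided on the difference of means. The smallest p that this permutation can give is 0.1. Merging and permutation were tested on simulated data. Named genes are those of the 10 strongest regions of each class, those with at least 2 regions of a class or with both, every X-linked dosage compensation and sex determination gene, and at most 4 genes of every other list. Genes of the groups and stretches were named after their values were seen. The members and lists were chosen with earlier results of these data known. Alternatives covered the q-value, list length, summit windows of 200 bp, joining, the IgG step, the limit on X, S2 replicate 3, the gene-end distance and each library left out.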

Additional observations from a re-analysis of the deposited data

How the results depend on the processing

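The number of Kc-line regions depended most on the settings, being 129 as reported, 52 when only q-values up to 0.0001 were used, 63 with equally long lists and 214 with IgG regions kept. S2-line regions numbered 258, 400 with 200 bp windows around summits and 43 with S2 replicate 3 required. With 1 library left out and the rest of the criteria kept, counts ran from 259 to 502 for S2-line and from 130 to 972 for Kc-line regions. Where a library that a class requires is left out, the class rests on the other one alone. Of the members as reported, 206 S2-line and 44 Kc-line regions stayed in their class at the stricter q-value, and 163 and 43 with equally long lists. The share held by S2 replicate 3 was 12.5% at the stricter q-value and ran from 9.36% to 16% with a library left out. The gene-end difference between the classes ran from -6.54 to 13.5 percentage points with a library left out. It was 1.16 with ends of 250 bp (95% interval -7.82 to 9.24), and its interval lay above 0 at the stricter q-value (15.6), with equally long lists (14.9), with summit windows (8.53), with IgG regions kept (14.5) and with ends of 1000 bp (12.8). These intervals cover counting error only, since regions of the same libraries are not replicates, and they are no test between the lines. The intergenic difference was -10.3 with IgG regions kept. The median width difference was -12 bp with peaks up to 200 bp apart joined and ran from -162 to 294.5 bp with a library left out.

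Over libraries, the gene-end difference was 0.513 percentage points with ends of 250 bp and ran from -5.41 to 4.69 with a library left out, and the intergenic difference ran from -1.28 to 8.35. Replicates 1 and 2 share only a number between the lines. With the replicate block, the gene-end difference was 4.69, the intergenic -1.28, the X share -2.97 percentage points and the median width 128 bp. Exact sign-flip tests of 2 pairs gave p = 0.5 or 1 for these, and such tests cannot give a p below 0.5. The difference in the 2 to 4 Mb window was 5.57 percentage points. The cause of these changes was not tested. The settings for the 2 to 4 Mb window were chosen after seeing the data, and the sign of its difference held in all 10. Leaving out a library or pairing replicates could not turn it, since every S2 library lay above both Kc libraries. The remaining settings use the same peak lists. The comparison of GA repeats was not run, since no genome was used here. The median width has no value for windows of fixed width, nor the share of S2 replicate 3 without that library. Read depth being unknown, a missing peak does not show missing binding.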
